A study of Rattus norvegicus with 9 samples.

Results

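Collecting duct genes for sodium and water transport were examined in kidney tissue by RNA sequencing. They were picked as genes of known function, by 9 Ensembl identifiers, and 8 of these were analysed among 17862 features. The ninth, Avpr2, which encodes the vasopressin V2 receptor, was not analysed here. All 8 were abundant enough to test, with 1 FPKM or more on average across libraries, as were 12187 features in all. FPKM divides the reads or fragments of a feature by its length and by the size of its library.

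The study compared 3 groups with 3 libraries each, all at 6 weeks of age. QDG stands for hypertension treated with Qingda granule, a herbal medicine, Model for hypertension without it, and WT for normal animals. No source used here gives the strain, the cause of the hypertension, the dose, or an animal for each library, so p-values measure only the spread between these libraries, which may be technical. The labels name the rat, while 17553 features carry mouse Ensembl identifiers, those of the chosen genes among them, and 309 do not. Which species' annotation the reads were counted on cannot be settled from the identifiers. Symbols are not paired with these identifiers, so other tubule markers and the pathway's regulators could not be looked up, and no other cell type's markers were checked. Aqp2, the gene of the water channel that defines the principal cells of the collecting duct, ranked between 105 and 579 among the 17862 features of a library.

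The collecting duct sets the final content of sodium and water in urine. In its principal cells, sodium enters through the epithelial sodium channel, ENaC, built of an alpha, a beta and a gamma subunit (Scnn1a, Scnn1b, Scnn1g). Aldosterone raises this uptake through the mineralocorticoid receptor (Nr3c2), and the enzyme 11-beta-hydroxysteroid dehydrogenase type 2 (Hsd11b2) inactivates glucocorticoids that would otherwise occupy that receptor. Vasopressin acts through cAMP to move aquaporin 2 (Aqp2) into the apical membrane, and water leaves the cell through aquaporins 3 and 4 (Aqp3, Aqp4) on the basolateral side.

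Sequences upstream of the gene start are shown for the apical and the basolateral water channel, Aqp2 and Aqp3, because the ratio of their levels is among the values given for the water channels; 6 of the 9 chosen genes had such a sequence. Both are RefSeq sequences of the rat assembly GRCr8, 250 bases that end 1 base before the gene start, and are printed 5′ to 3′ on the strand of the gene. Aqp2 is at chr7:132590036-132590285 on the plus strand and Aqp3 at chr5:61040684-61040933 on the minus strand. Capitals mark TGACGT (core of the cAMP response element), AGATAA (bound by GATA factors), AGAACA (part of corticosteroid receptor elements), CACGTG (an E-box) and TATAA (the TATA box), searched on both strands.
Aqp2: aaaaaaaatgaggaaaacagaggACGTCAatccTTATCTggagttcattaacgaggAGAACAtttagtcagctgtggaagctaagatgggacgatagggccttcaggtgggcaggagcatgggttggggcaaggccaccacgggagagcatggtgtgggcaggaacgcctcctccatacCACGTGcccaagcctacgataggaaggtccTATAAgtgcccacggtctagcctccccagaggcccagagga
Aqp3: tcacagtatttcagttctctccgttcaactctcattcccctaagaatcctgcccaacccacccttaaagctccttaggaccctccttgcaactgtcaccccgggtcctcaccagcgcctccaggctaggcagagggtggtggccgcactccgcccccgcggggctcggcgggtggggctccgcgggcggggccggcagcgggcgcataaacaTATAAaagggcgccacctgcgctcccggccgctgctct
The Aqp2 window held all 5 motifs, with no overlap among them. The cAMP element core was read on the opposite strand, as ACGTCA, at 227 to 222 bases before the start, and TATAA lay at 41 to 37 bases. In the Aqp3 window only TATAA was found, at 38 to 34 bases before the start. The window of Scnn1g, searched in the same way but not printed, held none of the 5 motifs. The windows of the remaining chosen genes that had one were not examined individually. Of the 33469 RefSeq windows of the same length, 6.95% held TGACGT, 10.3% AGATAA, 17.5% AGAACA, 5.59% CACGTG and 24.0% TATAA. A match describes letters only and shows neither binding nor a cause.

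On the FPKM scale, which is per length, Aqp2 was the most abundant of the 8 genes in 8 of the 9 libraries, with a median of 213 FPKM. Hsd11b2 followed at 102 FPKM, Aqp3 at 58.0 and Scnn1a at 37.4. Hsd11b2 stood above Aqp2 in QDG 3 alone, and Scnn1a above Aqp3 in Model 1 alone. Scnn1b (17.6 FPKM), Scnn1g (15.1) and Aqp4 (9.09) overlapped in range and changed places between libraries. Nr3c2 was lowest in every library, with a median of 2.68 FPKM. The fewest reads behind any of these values were 337, for Nr3c2 in Model 3, and the most were 15366, for Aqp2 in WT 3.

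**Figure D1:**
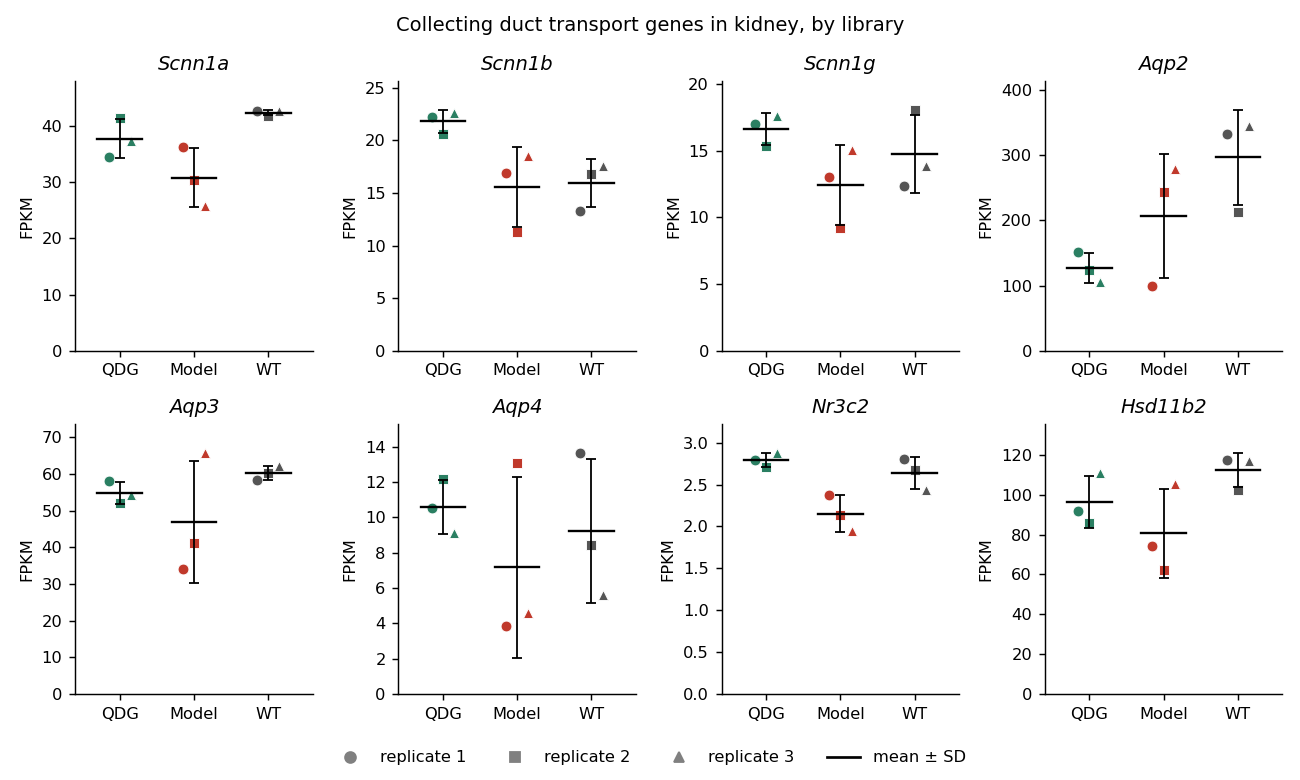
FPKM of the 8 genes in each of the 9 libraries, with 1 panel a gene, groups along the horizontal axis, points for libraries (marker shape gives the replicate number) and black lines for the mean ± SD (n = 3). Aqp2 lies between 105 and 151 FPKM in QDG and between 213 and 345 FPKM in WT, while the Model libraries spread from 98.9 to 279 FPKM.

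None of the 8 genes passed an adjusted p under 0.05 in any comparison. Values were tested as log2(FPKM + 1) with limma over all 12187 features, with Benjamini-Hochberg adjustment. For QDG against Model 0 of the 8 were called, where 0% of all features were (0 of 12187; 1695 had an unadjusted p under 0.05, and limma voom on recovered reads also called 0). For Model against WT 0 of 8 were called, where 7.90% of all features were, and for QDG against WT 0 of 8, where 2.47% were. For the mean of both hypertensive groups against WT the figures were 0 of 8 and 8.07%. At an unadjusted p under 0.05, 4 of the 8 differed between QDG and Model (13.9% of all features), 2 between Model and WT (28.0%), 2 between QDG and WT (21.3%) and 3 between the hypertensive groups together and WT (27.8%).

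All 8 estimates were below 0 for Model against WT, with a median log2 difference of −0.41 against 0.02 over all features. For QDG against Model 7 of 8 were above 0, with a median of 0.29 against −0.02 over all features, and Aqp2 was the exception. These comparisons share the Model libraries, so the same Model values enter both. For QDG against WT 4 estimates were above and 4 below 0, with a median of −0.04. In bulk tissue, fewer cells of a type and less RNA per cell cannot be told apart, and the share of collecting duct in each piece of kidney was not measured.

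**Figure D2:**
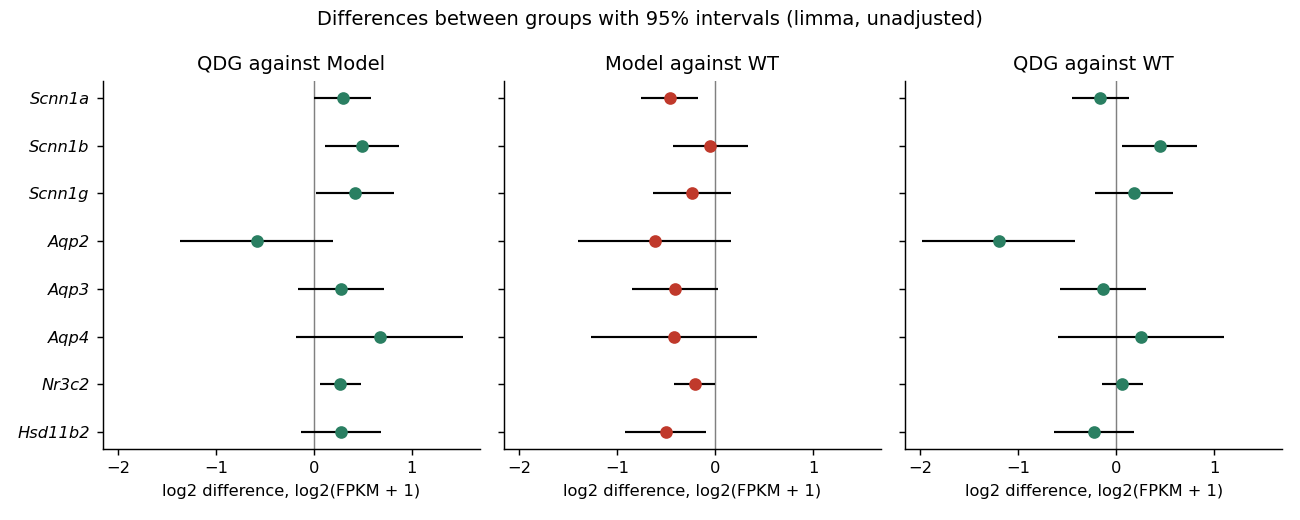
Log2 differences of the 8 genes on the log2(FPKM + 1) scale for QDG against Model, Model against WT and QDG against WT, with points for limma estimates and lines for their unadjusted 95% intervals. All 8 points are below 0 for Model against WT, and Aqp2 alone is below 0 for QDG against Model.

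Among the sodium channel subunits, the alpha subunit stood apart from the other two. Scnn1a (ENSMUSG00000030340) had 34.5, 41.4 and 37.4 FPKM in QDG, 36.2, 30.4 and 25.8 FPKM in Model, and 42.6, 41.8 and 42.7 FPKM in WT. Every hypertensive library, treated or not, was below every WT library, although QDG 2 missed the lowest WT library only narrowly. The WT libraries lay within 0.910 FPKM of each other. Model was below WT by a log2 difference of −0.46 (SE 0.13; adjusted p = 0.0562 by limma), or 0.726 times the WT level on the log2(FPKM + 1) scale. For QDG against WT it was −0.17 (SE 0.13; adjusted p = 0.490 by limma). Both hypertensive groups together gave −0.31 (SE 0.11; adjusted p = 0.111 by limma). An exact two-sided permutation test of 6 against 3 libraries gave p = 0.0238, the smallest it can give, as 1 of 8 such tests and not adjusted for their number. This p-value follows from the lack of overlap and adds nothing to it. Of all tested features, 13.6% did not overlap in this comparison, in either direction. For QDG against Model the log2 difference was 0.29 (limma, adjusted p = 0.356), and without Model 3 it was 0.18 (limma, adjusted p = 0.705). With median ratio scaling, of the FPKM values or of the recovered reads, QDG 2 lay above WT 2. The exact permutation test then gave p = 0.0476 in each case. After scaling the recovered reads by their total, QDG 2 lay above WT 1 and WT 2, and the exact permutation test gave p = 0.0714.

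The beta and gamma subunits were lowest in Model 2, where Scnn1a was second lowest of the 9 libraries. Scnn1b (ENSMUSG00000030873) had 22.3, 20.6 and 22.6 FPKM in QDG, 16.9, 11.3 and 18.5 FPKM in Model, and 13.3, 16.8 and 17.6 FPKM in WT. All QDG libraries were above all Model and all WT libraries, and Model and WT overlapped. The log2 difference of QDG against Model was 0.49 (SE 0.17; adjusted p = 0.310 by limma), and that of QDG against WT was 0.44 with the same SE (limma, adjusted p = 0.180). For Model against WT it was −0.05, with a 95% interval from −0.43 to 0.33. Scnn1g (ENSMUSG00000000216) had 17.0, 15.3 and 17.6 FPKM in QDG, 13.1, 9.18 and 15.1 FPKM in Model, and 12.4, 18.1 and 13.9 FPKM in WT. QDG was above Model in every library, by a log2 difference of 0.41 (SE 0.18; adjusted p = 0.348 by limma), and overlapped with WT. Without Model 2 the difference of QDG against Model was 0.29 for Scnn1b (limma, adjusted p = 0.405) and 0.23 for Scnn1g (limma, adjusted p = 0.545).

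The 2 subunits followed each other closely over the 9 libraries. After each gene's log2(FPKM + 1) was centred on its own mean, the root mean square difference between Scnn1b and Scnn1g was 0.15. Of the 6665 features averaging 5 FPKM or more, 12 were closer to Scnn1b than Scnn1g was. From the side of Scnn1g, 35 of 6665 were closer than Scnn1b. In the rat assembly GRCr8 Scnn1b and Scnn1g are neighbours on chromosome 1 with 0 annotated genes between them. The ratio of Scnn1b to Scnn1g within a library was 1.31 ± 0.0291 in QDG, 1.25 ± 0.0378 in Model and 1.09 ± 0.171 in WT (SD, n = 3 each). Scnn1a was farther from both, at root mean square differences of 0.36 from Scnn1b and 0.31 from Scnn1g.

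The balance of alpha to beta subunit mRNA can be read within a library, where the scaling of libraries cancels. This ratio, chosen after the values were seen and therefore not tested, was 1.55, 2.01 and 1.65 in QDG, 2.15, 2.70 and 1.39 in Model, and 3.20, 2.49 and 2.43 in WT. All QDG libraries were below all WT libraries, and the Model libraries overlapped both groups. In the same way Scnn1a over Scnn1g was 2.03 to 2.70 in QDG, 1.71 to 3.31 in Model and 2.31 to 3.44 in WT, and these ranges overlapped.

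**Figure D3:**
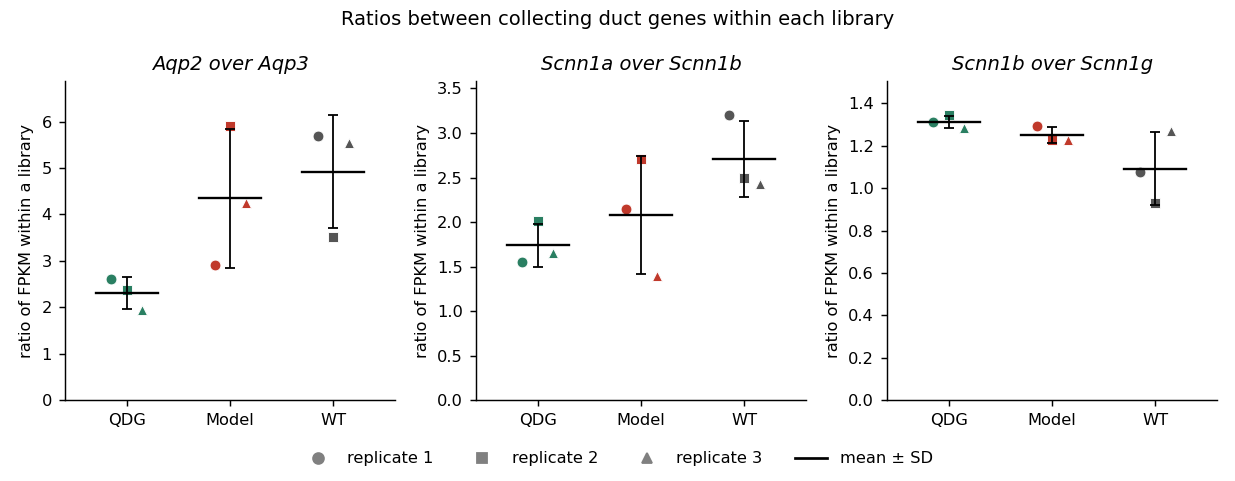
Ratios of FPKM within each library for Aqp2 over Aqp3, Scnn1a over Scnn1b and Scnn1b over Scnn1g, with groups along the horizontal axis, points for libraries and black lines for the mean ± SD (n = 3). Aqp2 over Aqp3 is 1.94 to 2.61 in QDG, and every Model and WT library is above that range.

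Of the water channels, Aqp2 (ENSMUSG00000023013) had the lowest estimates of the 8 genes against WT and was also uneven within groups. It had 151, 124 and 105 FPKM in QDG, 98.9, 243 and 279 FPKM in Model, and 332, 213 and 345 FPKM in WT. All QDG libraries were below all WT libraries. Model 1 lay below the whole QDG group, and Model 2 and Model 3 lay within the range of WT. After quantile normalization Model 3 lay just below all of WT, and with length trends removed Model 2 did. The mean was 127 ± 23.1 FPKM in QDG, 207 ± 95.3 FPKM in Model and 296 ± 72.9 FPKM in WT (SD, n = 3 each).

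The log2 difference of Aqp2 in QDG against WT was −1.20 with an SE of 0.35 and a 95% interval from −1.98 to −0.42 (limma, adjusted p = 0.0958), or 0.435 times the WT level. Of all tested features, 0.583% had a larger absolute difference in that comparison. The adjusted p was 0.0252 when only the QDG and WT libraries were fitted and 0.0279 without Model 1, both by limma, with the estimate unchanged, and its range over 20 alternatives was 0.0252 to 0.247. For QDG against Model the difference was −0.58 (SE 0.35; adjusted p = 0.474 by limma), with −1.05 without Model 1 (limma, adjusted p = 0.215) and −0.30 without Model 3 (limma, adjusted p = 0.829). For Model against WT it was −0.62 (SE 0.35; adjusted p = 0.280 by limma), and without Model 1 it was −0.15 (limma, adjusted p = 0.723). The difference of both hypertensive groups from WT was −0.91 (SE 0.30; adjusted p = 0.0907 by limma), and the exact permutation test gave p = 0.0714. That exact permutation p was 0.0476 with quantile normalization and with length trends removed, and 0.0714 to 0.214 in the other alternatives.

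Aqp3 (ENSMUSG00000028435), the basolateral exit for water in the same cells, did not share the low values of Aqp2 in QDG. It had 58.0, 52.1 and 54.3 FPKM in QDG, 34.0, 41.2 and 65.7 FPKM in Model, and 58.2, 60.4 and 62.2 FPKM in WT. The QDG libraries lay just under the WT libraries, and Model held both the lowest and the highest libraries. The log2 difference was −0.14 for QDG against WT (limma, adjusted p = 0.729), 0.27 for QDG against Model (limma, adjusted p = 0.551) and −0.41 for Model against WT (limma, adjusted p = 0.207), each with an SE of 0.20. Without Model 3 the difference of Model from WT was −0.67 (limma, adjusted p = 0.0363), and that of both hypertensive groups from WT was −0.40 (limma, adjusted p = 0.0483). Without Model 1 these differences were −0.21 (limma, adjusted p = 0.511) and −0.17 (limma, adjusted p = 0.499), and QDG against Model was 0.071 (limma, adjusted p = 0.870), against 0.54 without Model 3 (limma, adjusted p = 0.418). The exact permutation test of both hypertensive groups against WT gave p = 0.190, with 0.0238 after quantile normalization, 0.0357 without Model 3 and 0.0714 to 0.357 in the other alternatives. With length trends removed, or with recovered reads scaled by their total, QDG and WT overlapped for Aqp3, and Model 3 was not the highest library. After quantile normalization Model 3 lay below all WT libraries.

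The ratio of Aqp2 to Aqp3 within a library put the difference between these water channels on a scale that does not depend on library scaling. It was 2.61, 2.38 and 1.94 in QDG, 2.91, 5.90 and 4.24 in Model, and 5.70, 3.52 and 5.55 in WT. All QDG libraries were below all 6 others, with Model 1 the nearest. The ratio of Aqp2 to Hsd11b2 was 1.65, 1.44 and 0.950 in QDG, 1.34, 3.90 and 2.65 in Model, and 2.83, 2.08 and 2.95 in WT, so that Model 1 fell among the QDG libraries. Aqp3 over Hsd11b2 was 0.490 to 0.632 in QDG, 0.459 to 0.661 in Model and 0.496 to 0.590 in WT, and these ranges overlapped throughout. All 3 ratios were chosen after the values were seen and were not tested.

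Aqp4 (ENSMUSG00000024411) varied widely within Model and WT, and its differences depended on single libraries. It had 10.5, 12.1 and 9.09 FPKM in QDG, 3.84, 13.1 and 4.57 FPKM in Model, and 13.6, 8.43 and 5.63 FPKM in WT. Model held both its lowest and its second highest library, and the groups overlapped in all comparisons. The log2 difference of QDG against Model was 0.67 with an SE of 0.38 and a 95% interval from −0.18 to 1.52 (limma, adjusted p = 0.451). For Model against WT it was −0.42 with the same SE (limma, adjusted p = 0.495). Without Model 2 these differences were 1.15 (limma, adjusted p = 0.360) and −0.90 (limma, adjusted p = 0.0702). Without Model 1 they were 0.38 (limma, adjusted p = 0.665) and −0.13 (limma, adjusted p = 0.865). The difference of Model against WT was also −0.13 without WT 1, −0.70 without WT 3 and −0.23 without Model 3.

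The receptor for aldosterone was scarce and even. Nr3c2 (ENSMUSG00000031618) had 2.79, 2.71 and 2.87 FPKM in QDG, 2.38, 2.14 and 1.94 FPKM in Model, and 2.81, 2.68 and 2.43 FPKM in WT. All Model libraries were below all libraries of QDG and of WT, while QDG and WT overlapped. The log2 difference was 0.27 for QDG against Model (limma, adjusted p = 0.310), −0.21 for Model against WT (limma, adjusted p = 0.181) and 0.06 for QDG against WT (limma, adjusted p = 0.750), each with an SE of 0.09. At this level the added 1 FPKM understates the differences, and with a pseudocount of 0.1 FPKM they were 0.37 for QDG against Model and −0.29 for Model against WT. With length trends removed they were 0.18 (limma, adjusted p = 0.458) and −0.11 (limma, adjusted p = 0.462), and Model 1 then lay above WT 3, so that Model and WT overlapped. After quantile normalization Model 1 also lay above WT 3.

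Hsd11b2 (ENSMUSG00000031891), which guards that receptor, was lowest in 2 of the Model libraries. It had 91.8, 86.0 and 111 FPKM in QDG, 74.1, 62.4 and 105 FPKM in Model, and 117, 102 and 117 FPKM in WT. Model 3 lay within the range of WT, as did QDG 3, and the other hypertensive libraries were below all of WT. With length trends removed, Model 3 also lay below all of WT, while QDG 3 stayed within the WT range. The same held with quantile normalization and with recovered reads scaled by their total. The log2 difference of Model against WT was −0.51 (SE 0.18; adjusted p = 0.110 by limma), or 0.704 times the WT level. For QDG against Model it was 0.28 (limma, adjusted p = 0.512) and for QDG against WT −0.23 (limma, adjusted p = 0.508). The difference of QDG against Model was 0.11 without Model 2, 0.49 without Model 3 and 0.17 without QDG 3, and that of QDG against WT was −0.15 without QDG 2. The difference of both hypertensive groups from WT was −0.37 (SE 0.16; adjusted p = 0.168 by limma; exact permutation test, p = 0.0714). That exact permutation p was 0.0476 with recovered reads scaled by their total and with length trends removed, and 0.0714 to 0.214 in the other alternatives.

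Group ranges that do not overlap give a view that makes no use of the fitted spread. This view is given on the FPKM scale, and with other scalings Scnn1a, Aqp3, Nr3c2 and Hsd11b2 change in it, as given above. For QDG against Model 3 of the 8 genes did not overlap, all with QDG above Model (Scnn1b, Scnn1g and Nr3c2), where 26.7% of all features did not overlap in either direction. For Model against WT 2 genes did not overlap, Scnn1a and Nr3c2, both with Model below WT, where the background was 28.2%. For QDG against WT 4 did not overlap, Scnn1b with QDG above WT and Scnn1a, Aqp2 and Aqp3 with QDG below it, where the background was 27.7%. For all 6 hypertensive libraries against WT only Scnn1a did not overlap, where the background was 13.6%.

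**Figure D4:**
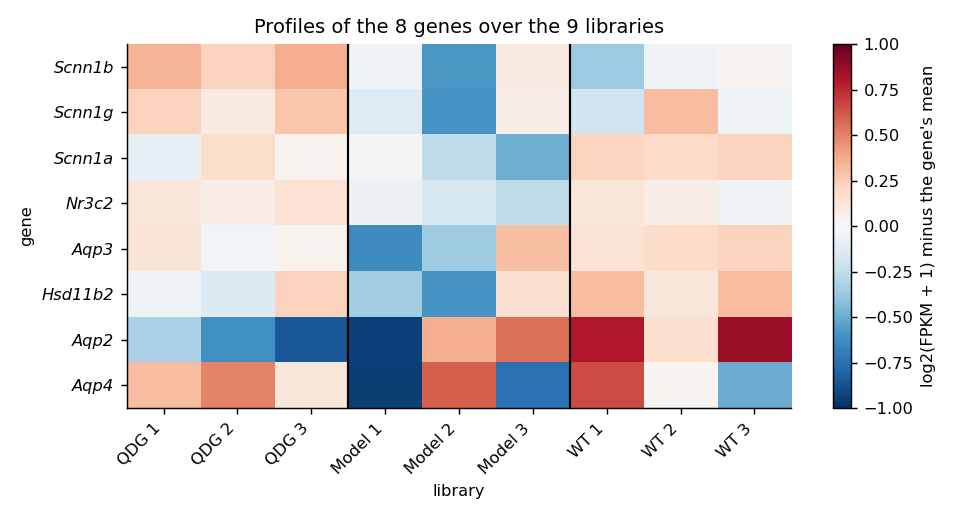
Profiles of the 8 genes over the 9 libraries, with colour for log2(FPKM + 1) minus the gene's mean over all libraries (red above, blue below) and black lines between QDG, Model and WT. All 8 genes are below their mean in Model 1, and 2 of the 8 are above it in Model 2.

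The 8 genes did not move as 1 block. The closest pairs by the root mean square difference were Scnn1b with Scnn1g (0.15), Scnn1a with Nr3c2 (0.15) and Aqp3 with Hsd11b2 (0.18). For Aqp3, 6 of 6665 features were closer than Hsd11b2, and for Scnn1a, 131 were closer than Nr3c2. From the side of Nr3c2, which varied little (root mean square deviation 0.13 from its own mean), 746 of 6666 features were closer than Scnn1a. Aqp2 was farther from the other genes: its nearest was Aqp3, at 0.56, and 459 of 6665 features were closer to it. Aqp4 was at 0.51 from Nr3c2, with 235 of 6665 features closer. The measure grows with a gene's own variation, and the deviations from their own means were 0.66 for Aqp2 and 0.56 for Aqp4. By the share of features closer, Aqp2 (6.89%) and Aqp4 (3.53%) were nearer to their closest gene than Nr3c2 was (11.2%). These values describe 9 libraries that share 3 groups, and they carry no test.

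The Model libraries differed from each other in which genes were low. All 8 genes were below their own mean in Model 1. In Model 2, Aqp2 and Aqp4 were above it and the other 6 below. In Model 3, Aqp2, Aqp3, Hsd11b2, Scnn1b and Scnn1g were above it, and Scnn1a, Nr3c2 and Aqp4 below.

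Short features stood higher in Model 3 than in any other library. Their median deviation there was 0.28 (log2) below 1000 bases of length, against −0.11 beyond 6000 bases. The 3 genes with lengths of 1419 to 1840 bases (Aqp2, Aqp3 and Hsd11b2) stood high in Model 3, and the 2 with 6233 and 6474 bases (Aqp4 and Nr3c2) stood low. The length trend of Model 3 was 0.24 at the length of Aqp2 and −0.06 at that of Nr3c2, against deviations of 0.55 and −0.26 for the genes themselves. At the lengths of Aqp3 and Hsd11b2 the trend was 0.205 and 0.204, against deviations of 0.304 and 0.153, so for Hsd11b2 it exceeded the deviation. Scnn1a, of 4132 bases, deviated by −0.49 in Model 3 where the trend was 0.027, and Aqp4 by −0.74 where it was −0.058. With each library's length trend removed, the log2 difference of Hsd11b2 in Model against WT was −0.63 (limma, adjusted p = 0.0499). That of Aqp2 was −0.77 (limma, adjusted p = 0.167) and that of Aqp3 −0.53 (limma, adjusted p = 0.0986). Whether feature length caused the deviation of any of these genes was not tested.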

How the data were processed

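Ribosomal RNA-depleted libraries were made from kidney RNA, per the labels' protocols. The authors deposited 1 value per feature and library without a written unit, taken here to be FPKM. Per the submitters' processing notes limma was used, and no source used here names the aligner, counter, genome build or annotation. Whole reads, recovered from the steps of the values for 17862 of 17862 features (within 0.001 read or a relative 2e-08), summed to 26.8 M (WT 2) to 29.4 M (Model 1) per library. By the library totals that the steps of the values imply, which differ from these sums, 1 read over 1 kb is 0.0318 to 0.0382 FPKM. Within groups, read counts of libraries differed beyond counting noise (chi-square per degree of freedom of 12.2 to 69.5).

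Features averaging 1 FPKM or more were tested as log2(FPKM + 1) with limma 3.58.1 (R 4.3.3; intensity trend, all 9 libraries, two-sided, Benjamini-Hochberg over all tested features within each comparison, threshold 0.05). The fit was tested on simulated data. Exact permutation tests used scipy 1.17.1. The genes, lists and tests were chosen with earlier results of these data known. Genes were named from the chosen identifiers. Planned companion gene lists and cell type markers, written in symbols, and the search for similar genes by symbol could not be run because 0 identifiers matched the rat RefSeq table (GRCr8), so no other gene is named. Alternatives were other pseudocounts, filters and scalings, voom on recovered reads, length-trend removal, 2-group fits, a replicate block and each library left out.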

Additional observations from a re-analysis of the deposited data

How the results depend on the processing

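Model against WT called 963 features (732 higher, 231 lower), 144 in a fit of only the groups compared and 533 with the replicate block; omitting 1 library gave 195 (Model 3) to 1529 (WT 3). QDG against Model called 0, then 1 with a pseudocount of 5 FPKM and 1 from only the groups compared; omitting 1 library gave 0 to 3 (Model 1). QDG against WT called 301 (199 higher, 102 lower). It called 486 from only the groups compared, 515 with quantile normalization, 453 once length trends were taken out and 154 with the replicate block; omitting 1 library gave 39 (QDG 2) to 775 (WT 3). Both hypertensive groups against WT called 983 (694 higher, 289 lower) and 572 with the replicate block; omitting 1 library gave 257 (WT 1) to 1605 (WT 3), and no fit of fewer groups could be made. Splits of calls in Model against WT were 431 higher and 283 lower with quantile normalization, and 500 and 283 or 673 and 429 with voom scaled by total reads or by the median ratio. For both groups against WT they were 596 and 431, 556 and 367, and 678 and 472.

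Of the 8 genes in Model against WT, Scnn1a passed in 4 of 20 alternatives (limma, adjusted p = 0.0382 to 0.166 over all 20), Hsd11b2 in 2 of 20 (0.0361 to 0.240) and Aqp3 in 1 of 20 (0.0363 to 0.511). The replicate block changed no call on the 8 genes. Same-numbered libraries of different groups correlated at −0.33 to 0.14 in their deviations from group means, and 1 of 9 pairs was over 0.1, so the numbers were not taken as pairs. Signs turned only when a library was omitted, for estimates that did not pass. Over such omissions the log2 difference of Scnn1b in Model against WT ran between −0.18 (Model 3) and 0.15 (Model 2), and that of Aqp4 in QDG against WT between −0.028 (WT 3) and 0.54 (WT 1). For both hypertensive groups against WT, Scnn1g ran between −0.14 (WT 1) and 0.11 (WT 2) and Aqp4 between −0.36 (WT 3) and 0.21 (WT 1), with the same bounds for the mean difference behind the exact permutation test. The cause was not tested. The exact permutation test of Scnn1a gave p = 0.0714 without any 1 WT library, the smallest possible there. The median 95% interval of a feature reached 0.29 (log2) to each side of its estimate in comparisons of 2 groups.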

Other observations

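The reads recovered in the listed features were 0.900 (WT 3) to 1.07 (Model 3) times the library totals implied by the steps of the FPKM values. In WT 1, WT 2, Model 1 and Model 3 they exceeded that total, so there the divisor of the deposited values was not the plain total of these reads. Reads scaled by their own total (limma voom) left the sign of the estimates of all 8 genes unchanged in all 4 comparisons.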
